A study of Mus musculus with 2 samples.

Results

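Interferon-stimulated genes are the genes that cells switch on when an interferon binds its receptor. A list of 44 such mouse genes was followed here, and all 44 were among the 54838 genes of both deposited count matrices. The list was given as gene symbols known to respond to interferon, and it was chosen with earlier results of these data known. The genes were read in macrophages of the sciatic nerve (SN). The mice were Flt3-Cre LSL-YFP fl/fl animals, a reporter line in which cells descended from Flt3-expressing hematopoietic progenitors turn on yellow fluorescent protein (YFP). The SNs of 19 animals, all males between 10 and 12 weeks of age, were pooled, CD64+ CD45int cells were sorted into a YFP− and a YFP+ fraction, and each fraction gave 1 single-cell RNA-seq library. All mice carried the same alleles, and no treatment is named for either group. A YFP− cell can be of another lineage or can be a cell in which the Cre did not act, and with pooled mice and 1 library per fraction no test between fractions could be made. Every interval given is a 95% interval that covers counting error only.

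Barcodes with at least 500 unique molecular identifiers (UMIs, one per captured transcript) and 200 genes were taken as cells. The YFP− library held 1045 such cells with 2418044 UMIs and a median of 2233 UMIs per cell, and the YFP+ library held 4053 cells with 6747554 UMIs and a median of 1484. Levels are counts per 1000000 UMIs summed over the cells of a library (CPM). Each UMI tags one end of a transcript, so levels were compared between genes without dividing by length. A count of 3 corresponds to 1.24 CPM for YFP− cells and to 0.445 CPM for YFP+ cells. Cell type markers went with the sort: the 10 macrophage markers, all detected, summed to 31920 and 32462 CPM, against 1.24 and 0.296 CPM for monocyte markers and at most 691 CPM for any other non-macrophage list (Schwann cell genes). The 2 fractions shared 7 cell barcodes.

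Type I interferons act through the receptor chains Ifnar1 and Ifnar2 and the kinases Jak1 and Tyk2, which pass the signal to a complex of transcription factors with Stat2 and Irf9. This complex binds the interferon-stimulated response element (ISRE) before many target genes, whereas interferon gamma acts mainly through another element, GAS. The targets include proteins that sense viral RNA or DNA, block viral entry, translation or release, and feed back on the pathway. In tissue macrophages a low level of this program is usual without infection, and single cells with a strong response are found in many tissues.

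A core of 17 members was used to score cells: Ifit1, Ifit2, Ifit3, Ifit3b, Isg15, Irf7, Rsad2, Ifi44, Oasl1, Oasl2, Oas1a, Oas2, Oas3, Mx1, Mx2, Usp18 and Cmpk2. They were chosen as antiviral effectors or regulators that type I interferon induces, although Mx2 is marked as a polymorphic pseudogene in the GENCODE M21 annotation. The 17 are called score genes below, and the remaining 27 are called the other members. The core ISRE letters GAAANNGAAA were searched on both strands, overlaps counted, in the 250 bases before each RefSeq gene start (GRCm38.p6). Of the 34 members found in the promoter table, 19 (55.9%) held a match, against 3.46% of the 27025 genes in the table, with 7 of 13 score genes and 12 of 21 other members. For the GAS letters TTCNNNGAA the shares were 11.8% of members and 8.13% of all genes. A match is a description of these letters, not a shown binding site. The windows below are from the members that the results turn on. They are written 5′ to 3′ on the strand of the gene, with the ISRE letters, or their reverse complement, in capitals.
Ifit1 (chr19:34640775-34640804, + strand): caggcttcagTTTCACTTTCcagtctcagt
Ifit1 (chr19:34640794-34640823, + strand): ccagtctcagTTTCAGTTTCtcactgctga
Ifit3 (chr19:34583363-34583392, + strand): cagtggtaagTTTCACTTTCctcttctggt
Isg15 (chr4:156200871-156200900, − strand): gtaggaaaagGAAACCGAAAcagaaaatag
Rsad2 (chr12:26456553-26456582, − strand): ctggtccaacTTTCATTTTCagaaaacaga
Bst2 (chr8:71537577-71537606, − strand): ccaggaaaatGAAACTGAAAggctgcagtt
Ifitm2 (chr7:140955988-140956017, − strand): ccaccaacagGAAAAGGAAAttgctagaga
Ifi206 (chr1:173491339-173491368, − strand): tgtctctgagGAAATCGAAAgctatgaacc
The Ifit3 window recurs letter for letter before Ifit3b, its near-copy in the same gene cluster, and the Isg15 window is the middle of 3 overlapping matches. No match was found in the windows of Ifit2, Irf7, Oasl2 and Ifitm3. The Ifit genes lie within 99.3 kb of chromosome 19 and Ifitm2 and Ifitm3 within 55.9 kb of chromosome 7 (GRCm38, GENCODE M21 annotation).

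Over whole libraries, a few membrane proteins and a DNA sensor carried most of the members' RNA, and the score genes were scarce. Ifitm3, which keeps enveloped viruses from fusing with endosomes, was at 1060 CPM (1020–1102) in YFP− cells and reached 1130 CPM (1104–1155) among YFP+ cells. Its neighbor Ifitm2, of the same family, was at 874 and 882 CPM. These 2 genes alone held 63.1% of the members' UMIs in YFP− cells and 63.5% in YFP+ cells. Bst2, the tetherin that holds budding virions on the cell surface, stood at 234 CPM (215–254) and 227 CPM (216–239), 2 intervals that overlap. Ly6e, a lipid-anchored surface protein, stood at 175 and 142 CPM, and Ifi204, a cytosolic DNA sensor of the Ifi200 family, at 102 and 116 CPM. The order of these 5 genes was the same in both libraries, and in each library no interval reached the next gene's.

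**Figure D1:**
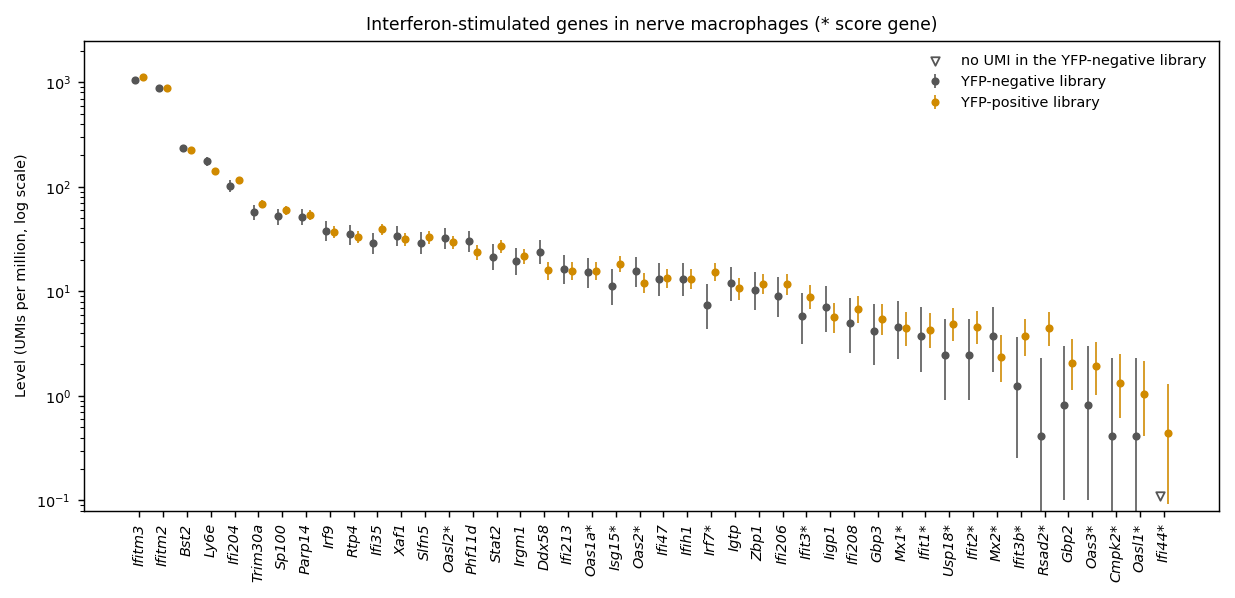
Level of each of the 44 members in CPM (log axis) in YFP− and YFP+ cells, with 95% Poisson intervals. Asterisks mark score genes and the open triangle marks Ifi44, with no UMI in YFP− cells. Ifitm3 and Ifitm2 stand near 1000 CPM in both libraries, whereas no score gene is above 32.3 CPM.

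Among score genes the highest was Oasl2, a relative of the 2′-5′-oligoadenylate synthetases, at 32.3 and 29.6 CPM. The synthetases Oas1a and Oas2, which make the second messenger that activates RNase L, were at 15.3 and 15.7 CPM and at 15.7 and 12.2 CPM, respectively. Isg15, a ubiquitin-like modifier, was at 11.2 CPM (7.36–16.2) among YFP− cells and, higher, at 18.4 CPM (15.3–21.9) among YFP+ cells. Irf7, the transcription factor that amplifies type I interferon production, was at 7.44 CPM (4.41–11.8) and 15.3 CPM (12.5–18.5). The Ifit proteins, which bind viral RNA and stop its translation, were lower still: Ifit3 at 5.79 and 8.89 CPM, Ifit1 at 3.72 and 4.30 CPM, Ifit2 at 2.48 and 4.59 CPM and Ifit3b at 1.24 and 3.71 CPM. The dynamin-like GTPases Mx1 and Mx2 were at 4.55 and 4.45 CPM and at 3.72 and 2.37 CPM, and Usp18, which strips Isg15 from proteins and damps receptor signaling, was at 2.48 and 4.89 CPM. Rsad2 (viperin), which makes a nucleotide that ends viral RNA chains, had 1 UMI in YFP− cells (0.414 CPM) and 30 in YFP+ cells (4.45 CPM). Another 5 members were too sparse to compare, with fewer than 20 UMIs over both libraries: Gbp2 with 2 and 14 UMIs, Oas3 with 2 and 13, Cmpk2 with 1 and 9, Oasl1 with 1 and 7, and Ifi44 with 0 and 3. That left 39 members, 13 of them score genes.

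The share of cells with a UMI has to be read against free RNA, taken here from barcodes of 10 to 100 UMIs. Ifitm3 had a UMI in 75.6% of YFP− cells and 68.4% of YFP+ cells. After each cell was thinned to 500 UMIs the shares were 38.3% and 38.1%, whereas 500 UMIs drawn from the free RNA would hold Ifitm3 in 46.6% and 51.2% of draws. For 22 of the 44 members, 10 of them score genes, the thinned share was at or below the free RNA share in both libraries, so that the share of cells with a UMI is no evidence of how many cells express them. The summed score genes made up 150.6 CPM of the free RNA of the YFP− library and 175 CPM of that of the YFP+ library, above their level in cells. The part of free RNA in the library levels was not tested beyond removing a fixed share of it.

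Between fractions most members were less than 1.5-fold apart. Of the 39 comparable members 6 were at least 1.5-fold higher in YFP+ than in YFP− cells on the (CPM + 1) scale, and 0 were as much higher in YFP− cells. Over all 12052 genes with at least 20 UMIs these shares were 5.82% and 10.6%, respectively. The 6 genes were all score genes. Rsad2 differed by 1.95 (0.62 to 2.47) on the log2 scale, Irf7 by 0.95 (0.28 to 1.64) and Isg15 by 0.67 (0.10 to 1.27). The log2 differences of Ifit3b (1.07), Usp18 (0.76) and Ifit2 (0.68) had intervals that reached 0. The nearest member short of the rule was Ddx58, which encodes the RNA sensor RIG-I, lower in YFP+ cells by a log2 difference of −0.57 (−1.02 to −0.10). Smaller differences with intervals clear of 0 were those of Ly6e at −0.30 (−0.47 to −0.14), Ifi35 at 0.42 (0.05 to 0.81) and Ifitm3 at 0.09 (0.03 to 0.16), none of them score genes. Summed, the score genes were at 108 CPM (95.2–122) in YFP− cells against 134 CPM (125–143) in YFP+ cells, a log2 difference of 0.30 (0.11 to 0.51). The other members summed to 2959 and 3036 CPM, a log2 difference of 0.04. Thinned to 500 UMIs per cell, the score genes' difference was −0.15, the opposite direction.

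A small number of cells held a large share of the score gene UMIs in the YFP+ library. With all UMIs kept, 23 YFP+ cells (0.567%, 0.360–0.850%) and 3 YFP− cells (0.287%, 0.0592–0.837%) had UMIs of at least 4 different score genes, a rule set after the data were seen. The 23 YFP+ cells held 0.962% of that library's UMIs but 266 of its 901 score gene UMIs (29.5%), at 4100 CPM against 95.02 CPM in the other YFP+ cells. The 3 YFP− cells held 18 of 261 score gene UMIs (6.90%), at 2377 against 101 CPM. Without these cells the summed score genes were at 101 CPM in YFP− cells against 95.02 CPM in YFP+ cells, a log2 difference of −0.08 (−0.30 to 0.13). Rsad2 then differed by 1.06, Irf7 by 0.41, Isg15 by 0.17 and Ifit2 by −0.88. Rsad2 and Ifit3b were then the 2 members at least 1.5-fold higher in YFP+ cells, beside 5.68% of all genes. Ifit2, Iigp1 and Ddx58 were the 3 at least 1.5-fold higher in YFP− cells, beside 10.8% of all genes. Rsad2 was left with 1 UMI in YFP− and 13 in YFP+ cells, Ifit3b with 1 and 11 and Ifit2 with 6 and 6, each under 20 UMIs in all. Of these members only Ddx58 had an interval clear of 0 (−1.08 to −0.16). Because the cells were picked by their score genes, their share of these UMIs and the fall without them follow in part from the rule, and they are given as descriptions. These cells were deeper than the others, with a median of 2661 UMIs against 1479.5 among YFP+ cells and 2630 against 2230.5 among YFP− cells, and the part of depth in their number was not tested with all UMIs kept.

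The strongest cells carried many score genes at once. The YFP+ cell with most had UMIs of 12 different score genes, 32 of its 2661 UMIs. The next had 11 different score genes and 46 score gene UMIs among 2667, with 12 of Isg15, 6 of Irf7, 5 of Rsad2, 5 of Ifit3 and 4 of Ifit2. A draw of the same size from the free RNA would hold 0.468 score gene UMIs. A shallow YFP+ cell of 733 UMIs still had 8 different score genes, whereas the strongest YFP− cell had 6 among 3675 UMIs. Among score genes with at least 20 UMIs Ifit2 had the largest share in these cells, which held 25 of its 31 YFP+ UMIs (80.6%). The 23 cells held 56.7% of the UMIs of Ifit3 and of Rsad2, 40.8% of those of Irf7 and 33.9% of those of Isg15. Picking the cells by their score genes builds in part of these shares. The cells held 3.38% of the UMIs of the other members together, ranging from 0.941% for Ifitm2 to 31.6% for Iigp1. All 3 UMIs of Ifi44 were in the 23 cells. Of these, 1 was in a cell with mural cell markers, which needed it to reach 4 score genes.

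**Figure D2:**
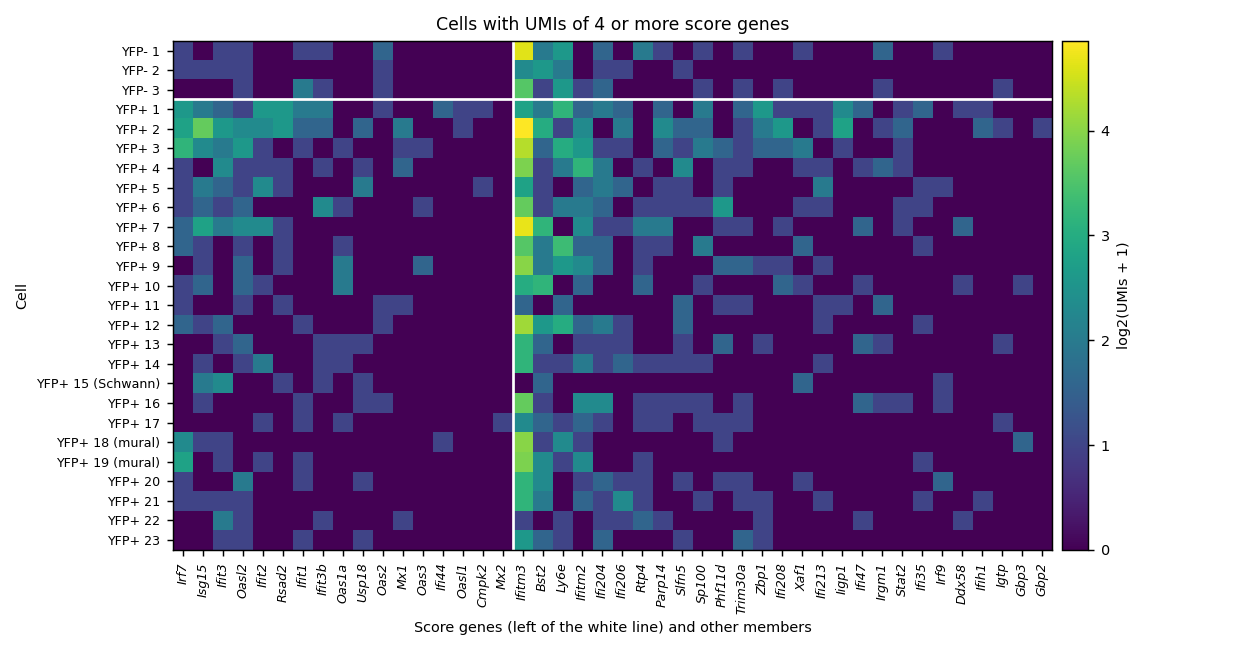
UMIs of the 44 members, as log2(UMIs + 1), in the 3 YFP− and 23 YFP+ cells with at least 4 different score genes, 1 row per cell and 1 column per gene, with score genes left of the white line. The top rows of the YFP+ block carry 12 and 11 different score genes, and the labels mark the Schwann marker cell and the 2 mural marker cells.

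Most but not all of these cells were macrophages by their markers. Of the 23 YFP+ cells 20 had 21 to 252 macrophage marker UMIs and the 3 YFP− cells had 47 to 135. The remaining 3 YFP+ cells had fewer than 10: 1 carried 97 UMIs of Schwann cell genes, and 2 carried 116 and 100 UMIs of mural cell genes, together with 4 and 6 UMIs of Irf7. Markers of plasmacytoid dendritic cells, the cells known for high Irf7 and interferon production, reached at most 2 UMIs in any of the 26 cells. Among cells with at least 10 macrophage marker UMIs, 3 of 1022 YFP− cells (0.294%) and 20 of 3882 YFP+ cells (0.515%) had 4 or more score genes, and they held 7.004% and 27.8% of the score gene UMIs.

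At equal depth interferon-high cells were rare in both fractions and their shares could not be separated. After thinning to 500 UMIs, 1 of 1045 YFP− cells (0.0957%, exact binomial interval 0.00242–0.532%) and 6 of 4053 YFP+ cells (0.148%, 0.0543–0.322%) had at least 3 different score genes. With all UMIs kept these were 9 cells (0.861%) and 44 cells (1.09%), with intervals of 0.395–1.63% and 0.790–1.45%. At least 1 score gene was seen after thinning in 5.65% of YFP− cells and 4.47% of YFP+ cells, and in 17.03% and 12.1% of cells with all UMIs kept. Free RNA gives UMIs of this kind in any cell, so the cells with 1 score gene are not read as responding.

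In YFP+ cells nearly all comparable members were higher in the cells picked by the score, whereas the picked YFP− cells held too few UMIs to show this for scarce members. For each gene, cells with at least 3 other score genes were set against the remaining cells of the same library, so that a gene's own counts never picked its cells. Cells were first picked on thinned counts, with levels taken from all their UMIs. In cells picked so, 8 of 39 members were at least 2-fold higher in both libraries: the score genes Irf7 and Oasl2, and Ifi206, Ifi204, Bst2, Slfn5, Ly6e and Ifitm3. The share over all genes was 0.797%. That count rests on 1 YFP− cell of 1269 UMIs and fell to 0 under another thinning seed. In that cell 1 UMI equals 788 CPM. The score genes Ifit3, Isg15 and Oas2 each had 1 UMI there but did not pass, because leaving any of them out left no YFP− cell picked. Every other comparable member with a UMI in the cell passed. For these members the YFP− part of the call shows only detection in 1 cell. Within the YFP+ library alone 35 of 39 members passed, beside 15.3% of all genes, and within the YFP− library the same 8, beside 4.2%. With at least 2 other score genes after thinning 24 members passed in both libraries (2.61% of all genes). With all UMIs kept, an alternative added after the data were seen, up to 9 YFP− cells and 44 YFP+ cells were picked. By this rule 27 of 39 members were 2-fold higher in both libraries (2.42% of all genes), 38 of 39 in YFP+ cells (13.9%) and 27 in YFP− cells (14.8%). With at least 4 other score genes 22 passed in both (1.65%), and in cells with at least 10 macrophage marker UMIs 26 passed with at least 3 (2.39%). Of the 27, 12 had at most 2 UMIs in the picked YFP− cells, and 10 further members had none there. In those cells 1 UMI equals 39.8 CPM, so that a scarce member passes 2-fold with a single UMI. For such members the YFP− call shows detection only. The median ratio of the members was 8.502 in YFP+ cells and 3.62 in YFP− cells, against 0.8996 and 0 over all genes.

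**Figure D3:**
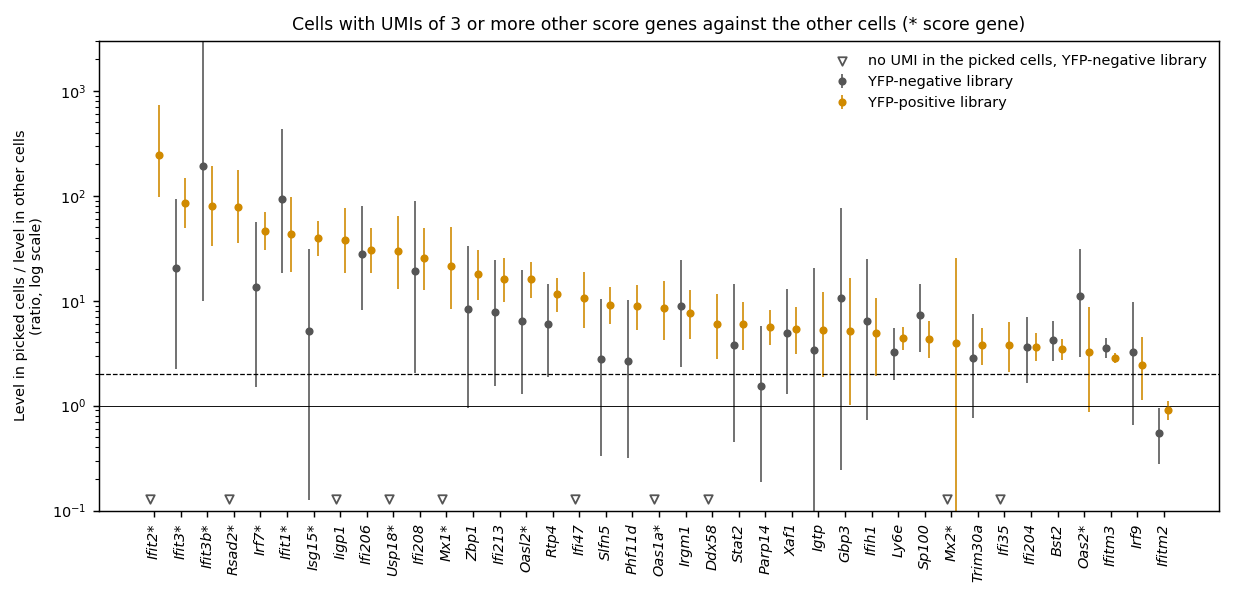
Ratio of each member's level in cells with at least 3 other score genes to its level in the remaining cells (log axis), for the 39 members with at least 20 UMIs, all UMIs kept, with 95% intervals for both libraries. The dashed line marks 2-fold and triangles mark the 10 members with no UMI in the picked YFP− cells, and some intervals run past the axis. Ifit2 reaches 245 in YFP+ cells, whereas Ifitm2 lies at 0.911 in YFP+ and 0.544 in YFP− cells.

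The highest ratio in YFP+ cells was that of Ifit2, of the RNA-binding Ifit proteins. It was at 221 CPM in picked cells and 0.904 CPM in the others, a ratio of 245 (97.9–729). The ratios of Ifit3 (85.3, 49.7–148), Ifit3b (79.1), Rsad2 (77.9, 35.6–174) and Ifit1 (43.3) were lower. Of the 50-base words in the end of the Ifit3 transcript 14.9% also occur in another gene, mainly Ifit3b, so that the separate counts of the pair are less certain. The regulator Irf7 was at 425 against 9.17 CPM (46.3, 30.5–69.8), and Isg15 at 486 against 12.3 CPM (39.5, 26.5–57.9), with Usp18 at a ratio of 29.7. Mx1 stood at 21.6, Oasl2 at 16.0 and Oas1a at 8.502, while the intervals of Oas2 (3.25, 0.865–8.67) and Mx2 (3.97, 0.0942–25.8, from 1 UMI) reached 1. More than 10-fold was reached in YFP+ cells by score genes and by other members. The share of all genes past this size is not given, so how many members reached it is not read as a result.

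The other members that reached this size were the GTPase Iigp1 (37.8), the Ifi200 family genes Ifi206 (30.1), Ifi208 (25.4) and Ifi213 (16.1), the nucleic acid sensor Zbp1 (18.1), the receptor-transporting protein Rtp4 (11.5) and the GTPase Ifi47 (10.55). The promoter windows of Ifi206, Ifi208 and Ifi213 are almost the same. For each gene the transcript whose end is shared most was taken. At these ends the 3 genes share 39.7 to 43.5% of the 50-base words with another gene, so their separate values are uncertain. The same holds for Phf11d (61.2% shared), Oas1a (56.1%), Sp100 (53.4%), Trim30a (50.1%) and Ifitm2 (41.9%). In YFP− cells, where 9 cells or fewer were picked, Ifit1 had 4 UMIs in picked cells and a ratio of 92.5, Ifi206 had 5 UMIs and a ratio of 28.0, and Sp100, a nuclear body protein, had 9 UMIs and a ratio of 7.33. The intervals of 16 members lay above 1 in both libraries. How many of all genes met this rule is not given, so the count is not read as a result. Among the 16 were Ifit1, Ifit3, Ifit3b, Irf7 and Oasl2 of the score genes and Bst2, Ly6e, Ifi204 and Ifitm3 of the abundant members. For these score genes the picked YFP− cells held few UMIs: 4 of Ifit1, 2 each of Ifit3, Ifit3b and Irf7, and 3 of Oasl2. The intervals take UMIs of the same cell as independent, although 3 of the 4 Ifit1 UMIs came from 1 cell.

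Ifitm3 and Ifitm2, the most abundant members, parted in these cells. Ifitm3 was at 3123 CPM in picked YFP+ cells against 1096 CPM in the others, a ratio of 2.85 (2.56–3.17), and at 3663 against 1033 CPM in YFP− cells, a ratio of 3.55 (2.85–4.37). Ifitm2 was at 805 against 883 CPM in YFP+ cells, a ratio of 0.911 (0.733–1.12), and at 478 against 878 CPM in YFP− cells, a ratio of 0.544 (0.281–0.952). Ifitm2 is the member of this pair with an ISRE match in its promoter window shown above, and Ifitm3 is the one without.

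The levels of Ifitm3, Bst2, Ly6e, Ifi204 and the 25 other members summed rose with the number of score genes detected in a cell. Detection of such scarce genes depends on sampling and free RNA, so whether single cells respond in grades was not tested. In YFP+ cells Ifitm3 went from 1036 CPM with 0 score genes to 1411, 1799 and 3123 CPM with 1, 2 and at least 3. In YFP− cells it went from 1001 to 1078, 1725 and 3663 CPM. Bst2 rose over the same classes from 201 to 286, 561 and 752 CPM in YFP+ cells and from 213 to 251, 482 and 956 CPM in YFP− cells. Ly6e rose from 126 to 165, 315 and 595 CPM in YFP+ cells and from 146 to 259, 404 and 557 CPM in YFP− cells, and Ifi204 from 104 to 146, 205 and 402 CPM and from 93.9 to 113, 171 and 358 CPM. Ifitm2 stayed between 875 and 941 CPM for 0 to 2 score genes in YFP+ cells and was at 878, 906, 730 and 478 CPM in the 4 classes of YFP− cells. The 25 other members without Ifitm2 and Ifitm3, with Bst2, Ly6e and Ifi204 included, summed to 867, 1308, 2524 and 5196 CPM in YFP+ cells and to 887, 1306, 2300 and 3982 CPM in YFP− cells. Of the 26 other members with at least 20 UMIs, 18 were higher at each step in YFP+ cells and 11 in YFP− cells, against 4.77% and 3.35% of all genes. The classes held 3564, 375, 70 and 44 YFP+ cells and 867, 145, 24 and 9 YFP− cells, and their median depth ran from 1427 to 2434.5 UMIs in YFP+ cells and from 2125 to 2877.5 UMIs in YFP− cells, the part of which was not tested.

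**Figure D4:**
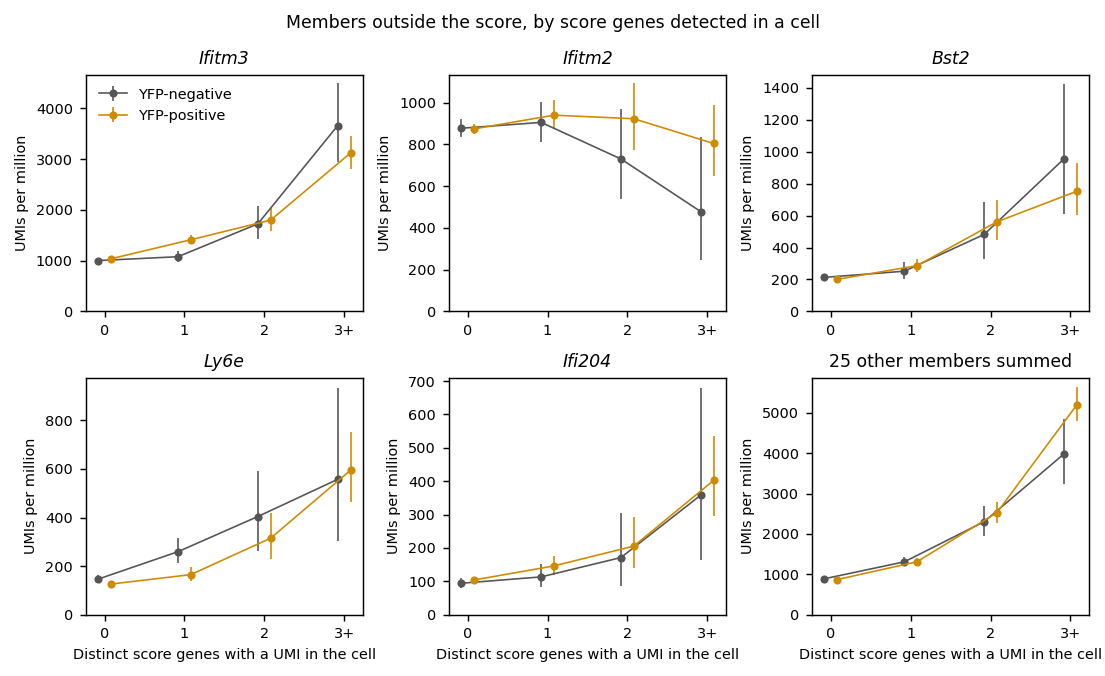
Level in CPM (UMIs per 1000000) of Ifitm3, Ifitm2, Bst2, Ly6e, Ifi204 and the 25 other members without Ifitm2 and Ifitm3 summed. The sum includes Bst2, Ly6e and Ifi204. Levels are shown in cells with 0, 1, 2 and at least 3 different score genes, for YFP− and YFP+ cells with 95% Poisson intervals. Ifitm3 reaches 3123 CPM (YFP+) and 3663 CPM (YFP−) in the last class, whereas Ifitm2 is at 805 and 478 CPM there.

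Across single YFP+ cells most pairs of score genes varied together. Over the 4053 YFP+ cells, the Pearson correlation of depth-adjusted counts reached 0.1 in 48 of 78 score gene pairs (61.5%), with a median of 0.158, against 0.0899% of all gene pairs with at least 20 UMIs. The highest were Ifit2 with Rsad2 (0.572, 5 cells with both), Ifit2 with Isg15 (0.569, 7 cells) and Ifit3 with Isg15 (0.561, 14 cells). Over the 1045 YFP− cells 11 of 78 pairs (14.1%) reached 0.1, against 1.19% of all pairs. Without the cells with at least 4 score genes, 8 pairs were left in YFP+ cells and 7 in YFP− cells, a fall that picking those cells by their score genes builds in. The points share a library and the cells' depth, and these values are descriptions. Of the 39 members, Isg15 had the highest mean correlation with the score genes other than itself in YFP+ cells (0.319), and Gbp3 (0.0078) and Ifitm2 (0.019) the lowest. Ifitm3 correlated with Bst2 at 0.245 in YFP+ and 0.237 in YFP− cells and with Irf7 at 0.292 and 0.262, and with Ifitm2 at 0.191 and 0.172.

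**Figure D5:**
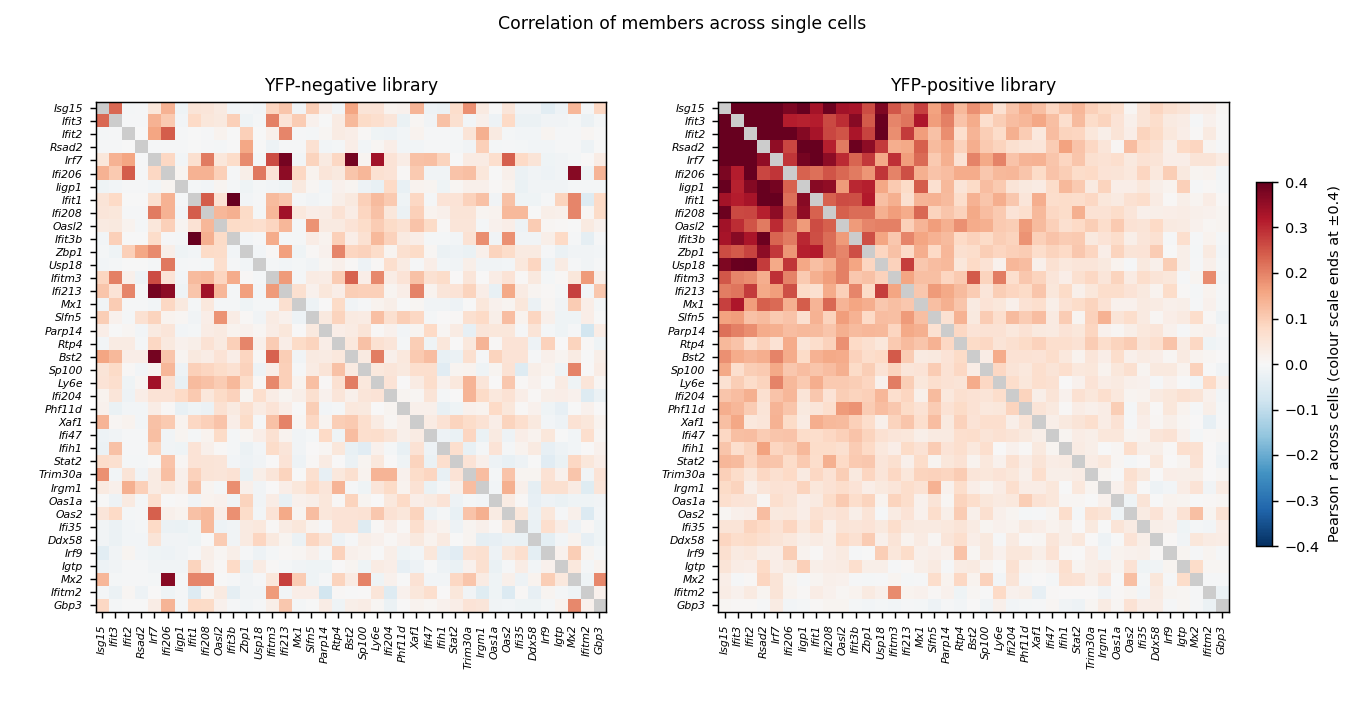
Pearson correlation across cells of depth-adjusted counts for the 39 members with at least 20 UMIs, in YFP− cells and in YFP+ cells. Genes are in the order of their mean correlation with all other members shown, in YFP+ cells. The color scale ends at 0.4 in both directions. The mean correlation with the score genes alone in YFP+ cells was 0.319 for Isg15 and 0.0078 for Gbp3.

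Among the genes upstream of the members, receptors were detected and ligands hardly at all. Of 10 interferon genes only Ifnz had UMIs, 1 in YFP− and 2 in YFP+ cells, and a count of 0 allows up to 1.24 and 0.445 CPM for each of the others. The type I receptor chains Ifnar1 and Ifnar2 were at 110 and 132 CPM in YFP− cells and at 107 and 154 CPM in YFP+ cells, and the interferon gamma receptor chains Ifngr1 and Ifngr2 at 290 and 67.0 CPM and at 325 and 67.6 CPM. None of the 5 receptors with at least 20 UMIs was 1.5-fold apart between fractions or 2-fold higher in picked cells of both libraries. Of 6 sensors with at least 20 UMIs only Dhx58, the RIG-I relative LGP2, was 2-fold higher there, with ratios of 10.0 in YFP− and 6.55 in YFP+ cells, and of 3 inhibitors none was. Of 33 further induced genes outside the members 13 were 2-fold higher in picked cells of both libraries, among them Ifi27l2a, Ifi203, Ifi209, Tap1, Parp9, Herc6, Eif2ak2 and Ddx60. Eif2ak2, the kinase PKR that halts translation, had ratios of 7.94 and 6.98. Nmi alone of the 33 was 1.5-fold higher in YFP+ than in YFP− cells. Ifi27l2a was at 559 and 552 CPM in the libraries, more than any member but Ifitm3 and Ifitm2.

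For each main macrophage program but cycling, more members were lower than higher in the cells high in the program, as was so over all genes. Cells in the top 10% of each library by 6 marker programs were set against the rest, and members 1.5-fold apart the same way in both libraries were counted. For the epineurial-type program (Lyve1, Cd209f and others) 1 of 39 members was higher and 5 were lower, beside 3.3% and 9.02% of all genes, and for the Ccr2-type program 2 and 6, beside 5.01% and 7.06%. For the cycling program the counts were 2 and 0 (6.39% and 4.67% of all genes), for the immediate-early program 0 and 8 (3.98% and 9%), for the inflammatory program 0 and 4 (3.22% and 7.68%), and for MHC class II 1 and 3 (2.08% and 12.5%). The share of members called lower was above that of all genes except for the cycling and MHC class II programs. These counts are small, partly near the share of all genes, and are not read as a result about the members. Several lower calls rest on 0 UMIs in the top YFP− cells. For the epineurial-type program these include Ifit2, Mx1 and Usp18, with 6, 11 and 6 UMIs in all YFP− cells. Only 3 of the 32 member calls had both intervals clear of 1. Ly6e was higher in epineurial-type cells, at 523 against 142 CPM in YFP− cells (ratio 3.68, 2.93–4.58) and at 349 against 118 CPM in YFP+ cells (2.96, 2.55–3.43). It was lower in immediate-early cells, with ratios of 0.553 (0.371–0.798) and 0.437 (0.327–0.574). Irf9, the DNA-binding part of the ISRE complex, was lower in Ccr2-type cells, with ratios of 0.372 (0.0991–0.986) and 0.575 (0.335–0.929).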

How the data were processed

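The deposited files were unfiltered UMI count matrices of 124162 (YFP−) and 187104 (YFP+) barcodes, made by the authors with the 10x Genomics v2 chemistry on GRCm38; the submitters' notes name Cell Ranger 3.0.2 and Seurat 2.2.0, and the annotation release is not given in the sources used here. Each group was 1 library, so values carry exact Poisson or binomial intervals (ratios conditional on summed counts) and no p-value. The study's filter on reads per cell could not be applied to UMI counts. Cells were barcodes with at least 500 UMIs and 200 genes (66.2% and 72.0% of all UMIs). Scrublet marked 3 of 1045 and 0 of 4053 cells, under the share at which it is taken to have worked, and cells were kept. Thinning drew 500 UMIs per cell without replacement. Correlations used analytic Pearson residuals (theta 100). Genes entered comparisons with at least 20 UMIs over both libraries, calls used fixed sizes (1.5-fold on CPM + 1 between libraries, 2-fold in interferon-high cells), and all rules ran over all genes for the background. Named members were all score genes with at least 20 UMIs, those past 1.5-fold, the 5 of highest level and those under 20 UMIs, and outside the members 10 genes of the largest smaller ratio with at least 50 UMIs and the pathway lists. Further genes named for their ratios or intervals were picked after their values were seen. The members, lists and rules were chosen with earlier results of these data known, and cells with at least 4 score genes, unthinned picking and the macrophage marker minimum were added after the data were seen. Transcript ends (500 bases) and promoters came from GENCODE and RefSeq tables. One sensor symbol, Mb21d1, was not matched. Some pathway results are not reported here. Scripts (Python 3.11.15, numpy 2.4.6, scipy 1.17.1, pandas 2.3.3, scanpy 1.11.5) were tested on simulated data.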

Additional observations from a re-analysis of the deposited data

How the results depend on the processing

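No paired analysis was possible because each group is 1 library, and for the same reason no replicate could be left out. Of the summary results, 77 values stayed within the limits set for them and 33 did not. For single members, 412 values stayed and 17 did not. The count of members 1.5-fold higher in YFP− cells, 0 as reported, became 1 with each cell weighted equally, 6 after thinning to 500 UMIs, 2 with a pseudocount of 0.1 CPM and 1 with 10% free RNA removed. The log2 difference of the summed score genes was 0.10 with each cell weighted equally and −0.15 after thinning, where the other members were at −0.043, Irf7 at −0.34, Isg15 at −0.076 and Usp18 at −0.12. Without cells with at least 4 score genes (chosen after seeing the data) the counts were 2 and 3, the score genes −0.084 and Ifit2 −0.88. The share of interferon-high cells was 0.574% (YFP−) and 0.518% (YFP+) with at least 2 score genes, 0% (YFP−) with at least 4, 0.488% (YFP+) after thinning to 1000 UMIs, 0.861% and 1.09% without thinning, 0% (YFP−) with a second thinning seed, and 0.567% (YFP+) with at least 4 unthinned (added). The count of members 2-fold higher in both libraries was 0 with the second seed, 24 with at least 2 score genes and 27 for the top 5% of cells by residuals. Among additions it was 27 with at least 3 and 22 with at least 4 unthinned score genes, and 26 with at least 3 in cells with macrophage markers. Score gene pairs with r of at least 0.1 numbered 7 (YFP−) and 24 (YFP+) by Spearman correlation of thinned counts and 7 and 8 without cells with at least 4 score genes. In the top 5% of cells by program, 5 members were higher and 3 lower for the epineurial-type program, 1 was lower for cycling, 1 higher for inflammatory and 4 higher for MHC class II. The shares of all genes at the 5% cut are not given, so these program counts are not read as a result about the members. The cause of the changes between settings was not tested, except that the settings without cells with at least 4 score genes hold fewer cells by construction. Members with few UMIs limit the precision most: in the picked YFP− cells 1 UMI equals 39.8 CPM.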

Other observations

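Genes outside the members that went furthest with the score genes in both libraries rested on few UMIs. By the rule on thinned counts, which picks 1 YFP− cell, the 10 genes with the largest smaller ratio were Slamf8, Ms4a4c, Tap1, Gm4951, Tfb2m, Ogfr, Ankle2, Syvn1, Etnk1 and Mndal. Except for Mndal, of the Ifi200 family, each had 1 UMI in that cell. With all UMIs kept, a rule added after the data were seen, they included BC147527, Eif2ak2, Dhx58, Ifi209, Itm2a, Rnf213, Ddx60 and Slfn8. Ifi209, of the Ifi200 family, had 5 UMIs in picked YFP− cells and 14 in picked YFP+ cells, with ratios of 11.9 and 6.40. Rnf213, a large ubiquitin ligase, had 2 and 12 UMIs and ratios of 7.33 and 5.95, and Ddx60, an RNA helicase, 2 and 11 UMIs and ratios of 5.29 and 7.17. BC147527 had 1 and 7 UMIs and ratios of 13.6 and 10.98. Cxcl10, a chemokine that interferons induce, had 6 UMIs in all YFP− cells and 21 in all YFP+ cells.

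In the 23 YFP+ cells with at least 4 score genes, the median cell held 575 CPM of the 9 immediate-early genes (Fos, Jun, Egr1 and others), against 2806 CPM in the median of the remaining YFP+ cells. In the same medians the 10 macrophage markers stood at 27128 against 30433 CPM and the MHC class II genes at 51943 against 49314 CPM. Summed over cells, the immediate-early genes were closer, at 4115 CPM in the 23 cells against 6387 CPM in the others. The 23 cells include those with Schwann and mural cell markers.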
